A study of Mus musculus with 6 samples.

Results

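Interferon-stimulated genes are the genes that a cell switches on when it senses an interferon. The set described here holds 39 of them, matched by symbol to the gene names of the deposited count table, which lists 43346 genes. All 39 were found and all 39 were among the 20210 genes with enough counts to be tested. RNA came from the limb bones of C57BL/6 mouse pups 1 day after birth, in 3 libraries labelled wild type and 3 labelled Hdac3 CKO, a conditional knockout of the histone deacetylase gene Hdac3 with Prx1. The Prx1 (Prrx1) enhancer drives Cre recombinase in limb bud mesenchyme, which forms bone, cartilage and tendon but neither blood cells nor muscle fibres. The labels do not say whether the wild type pups carried floxed alleles or Cre, nor whether each library came from its own animal or litter. Each p-value thus reflects the spread among these 6 libraries alone, and part of that spread may be technical. The comparison asks how loss of Hdac3 in the limb mesenchyme altered transcript levels in bone.

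Type I interferons bind a receptor pair (Ifnar1 and Ifnar2) that signals through the kinases Jak1 and Tyk2. A complex that includes Stat2 and Irf9 then enters the nucleus and binds a DNA element called the ISRE, which sits in the promoters of many of these genes. Their products sense viral nucleic acid, block viral replication and help present antigen, and some of them damp the response again. Most cell types of bone, including cells of the mesenchyme, osteoclasts and blood cells, can mount this response, and interferon is known to restrain the formation of osteoclasts.

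Total counts per library ranged from 43389262 to 50927978. Values per library below are CPM, read counts scaled to library size, after the TMM correction for library composition. Hdac3 itself had 48.4, 47.4 and 50.3 CPM in wild type against 31.8, 29.4 and 28.3 CPM in Hdac3 CKO. The groups did not overlap, and Hdac3 fell by 0.71 on the log2 scale (SE 0.12, adjusted p = 0.027 by the quasi-likelihood test of edgeR, Benjamini-Hochberg method). With 1 library left out the call was kept only without Hdac3 CKO replicate 1 (adjusted p 0.0167, otherwise up to 0.126), while the log2 fold change stayed between -0.76 and -0.67. Wild type replicate 3 and Hdac3 CKO replicate 3 stood apart in cartilage markers, with summed levels of 6397 and 13697 CPM against 742 to 1350 CPM in the other libraries. Hdac3 CKO replicate 1 stood apart in muscle markers, at 39699 CPM against 19401 to 23866 CPM. Hdac3 CKO replicate 3 also held 132 CPM of Y-linked transcripts, where no other library exceeded 5.60 CPM.

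Of the 39 interferon-stimulated genes 1 rose in the Hdac3 CKO libraries and none fell. Only genes with an adjusted p below 0.05, over all 20210 genes, are said to rise or fall. The gene that rose was Oas1a, and it makes up 2.56% of the set, against 0.703% of all tested genes that rose. Of all tested genes 1.18% passed in either direction and 0.475% fell. At an unadjusted p under 0.05, 9 members were higher (23.1%) and 1 was lower (2.56%), against 7.79% and 7.2% of all tested genes. DESeq2, run as an alternative, also called no member lower.

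The log2 fold changes of the members, Hdac3 CKO over wild type, ran from -0.43 to 1.26. They lay above 0 for 24 members (61.5%) and below 0 for 15, with a median of 0.25. Over all tested genes the median was 0.00098 and 50.1% lay above 0. For 8 members all 3 Hdac3 CKO libraries were above all 3 wild type libraries (20.5%, against 11.5% of all tested genes). These were Oas1a, Mx1, Ifit3, Bst2, Zbp1, Oasl1, Tap1 and Psmb9. For 3 members, Samhd1, Gbp3 and Eif2ak2, the order was the opposite (7.69%, against 10.9% of all tested genes). The share that did not overlap in either direction was 28.2% of the set and 22.5% of all tested genes.

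**Figure D1:**
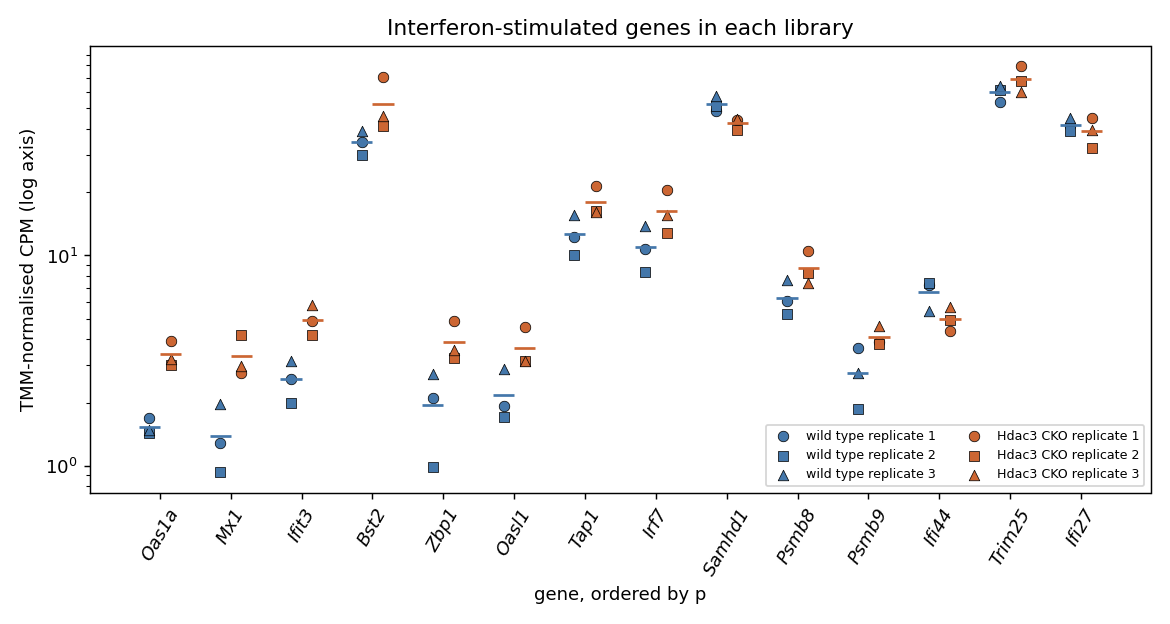
TMM-normalised CPM (log axis) of the 12 members with the smallest p, with Trim25 and Ifi27 added for their high level, ordered by p from left to right, with 1 point per library and a bar at the mean of each genotype (n = 3). The Hdac3 CKO points of Oas1a (3.03 to 3.92 CPM) lie clear of the wild type points (1.43 to 1.69 CPM), while those of Irf7, Psmb8, Ifi44, Trim25 and Ifi27 overlap with wild type.

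Levels of different genes were compared only as RPKM, which divides reads by gene length. In wild type bone the set spanned from 0.315 RPKM for Mx1 to 37.4 ± 4.81 RPKM (SD, n = 3) for Bst2, with a median of 1.91 RPKM. Ifi27 followed Bst2 at 23.6 ± 2.19 RPKM, and Trim25 and Isg15 came next at 8.63 and 8.58 RPKM. Trim25 and Isg15 did not differ beyond their spread, which was 1.38 and 2.12 RPKM (SD). The counts behind a member ranged from 48 to 3276 in a library, so the scarcest members carry the most counting noise.

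The oligoadenylate synthetases (OAS) make a short RNA-like messenger that activates an RNA-cutting enzyme, RNase L, once they meet viral double-stranded RNA. Oas1a, on chromosome 5 from 120896256 to 120907521 (mm10), had 1.69, 1.43 and 1.49 CPM in wild type and 3.92, 3.03 and 3.23 CPM in Hdac3 CKO. Every Hdac3 CKO library was above every wild type library. The means were 1.54 ± 0.14 and 3.40 ± 0.47 CPM (SD, n = 3), a log2 fold change of 1.14 (SE 0.22, adjusted p = 0.0474 by the quasi-likelihood test of edgeR). This call lies close to the threshold. In the older form of the same edgeR test, which is the default of the version used, the adjusted p was 0.0508 and no member passed. At an unadjusted p under 0.05 were 10 members in that form, beside 2968 of all tested genes. Leaving out any 1 of the 6 libraries gave an adjusted p between 0.0702 and 0.179, with the log2 fold change between 1.01 and 1.22. Over all alternatives the edgeR, DESeq2 and limma adjusted p ran from 0.000606, under DESeq2, to 0.282 without the cartilage-rich pair of libraries.

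Oas1a has a near-identical neighbour, Oas1g, and how reads matching both were counted is not given in the sources used here, so the values of each are uncertain. Oas1g is not a member but is 1 of the other interferon-induced genes counted further below, and its values by library are given for this reason. It had 0.582, 0.853 and 0.875 CPM in wild type and 1.86, 1.27 and 1.58 CPM in Hdac3 CKO. Its groups did not overlap either, but the log2 fold change of 1.03 (SE 0.30) did not pass (edgeR adjusted p = 0.151).

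All 5 OAS members had log2 fold changes above 0, with a median of 0.42, and Oas1a was the only one that passed. Oasl1, which restrains translation of Irf7, had 1.94, 1.71 and 2.89 CPM in wild type and 4.58, 3.15 and 3.16 CPM in Hdac3 CKO (log2 fold change 0.74, SE 0.27, edgeR adjusted p = 0.248). Its groups did not overlap, and Hdac3 CKO replicate 1 stood above the other Hdac3 CKO libraries. Oas2, Oas3 and Oasl2 had log2 fold changes of 0.42, 0.28 and 0.27, with overlapping groups. For Oasl2, Hdac3 CKO replicate 1 was the highest of the 6 libraries at 24.3 CPM and Hdac3 CKO replicate 2 the lowest at 9.80 CPM.

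Of the IFIT proteins, Ifit1 binds viral RNA that lacks the cap marks of host RNA. Ifit3, on chromosome 19 from 34583531 to 34588731, had 2.59, 1.997 and 3.15 CPM in wild type and 4.89, 4.21 and 5.79 CPM in Hdac3 CKO. The groups did not overlap, and the log2 fold change was 0.94 (SE 0.23, edgeR adjusted p = 0.0985), short of the threshold. DESeq2 called Ifit3 with an adjusted p of 0.00815. Ifit3 also has a near-identical neighbour in the mouse genome, which leaves its count uncertain. The other IFIT members lay on the other side of 0 or at it: Ifit2 had a log2 fold change of -0.25 and Ifit1 of -0.0087. Ifit1 ranged from 2.38 to 2.68 CPM in wild type and from 1.86 to 3.35 CPM in Hdac3 CKO, so the wild type values lay inside the Hdac3 CKO range.

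Mx1 is a dynamin-like GTPase that blocks influenza virus, and many laboratory strains, C57BL/6 among them, carry a defective Mx1 allele. Mx1, on chromosome 16 from 97447035 to 97462907, had 1.28, 0.931 and 1.97 CPM in wild type and 2.76, 4.21 and 2.999 CPM in Hdac3 CKO. It had the largest log2 fold change of the set, 1.26 (SE 0.31), but the wide spread within each genotype kept it short of the threshold (edgeR adjusted p = 0.0971). DESeq2 called it with an adjusted p of 0.00658. Its paralogue Mx2, annotated in GENCODE M21 as a polymorphic pseudogene, had a log2 fold change of -0.10, with overlapping groups.

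Bst2 (tetherin), which holds budding virus particles at the cell surface, was the most abundant member. It lies on chromosome 8 from 71534264 to 71537437 and had 34.6, 30.1 and 39.2 CPM in wild type and 70.9, 41.3 and 46.0 CPM in Hdac3 CKO. The groups did not overlap, but Hdac3 CKO replicate 1 stood far above its companions and Hdac3 CKO replicate 2 was only just above the highest wild type library. The log2 fold change was 0.61 (SE 0.21, edgeR adjusted p = 0.212), and it was 0.32 without Hdac3 CKO replicate 1.

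Samhd1, which depletes the nucleotides that viruses need for DNA synthesis, ran the other way. It had 48.7, 51.5 and 57.0 CPM in wild type and 43.9, 39.3 and 44.8 CPM in Hdac3 CKO (log2 fold change -0.30, SE 0.13, edgeR adjusted p = 0.311). All Hdac3 CKO values lay below all wild type values, by a small margin. Eif2ak2 (PKR), the kinase that shuts down translation on sensing double-stranded RNA, also did not overlap, at 22.4 to 25.1 CPM in wild type against 13.3, 21.5 and 21.9 CPM in Hdac3 CKO. Its log2 fold change of -0.30 (edgeR adjusted p = 0.487) was -0.11 without Hdac3 CKO replicate 1, the low library. Isg20, an exonuclease that degrades viral RNA, had a log2 fold change of 0.45 that rested on Hdac3 CKO replicate 3 (4.603 CPM), as Hdac3 CKO replicates 1 and 2 had 2.11 and 1.15 CPM. Without that library it was -0.24. Cmpk2 and Rsad2 (viperin), neighbours that act together to make a chain-terminating nucleotide, had log2 fold changes of -0.06 and -0.05.

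**Figure D2:**
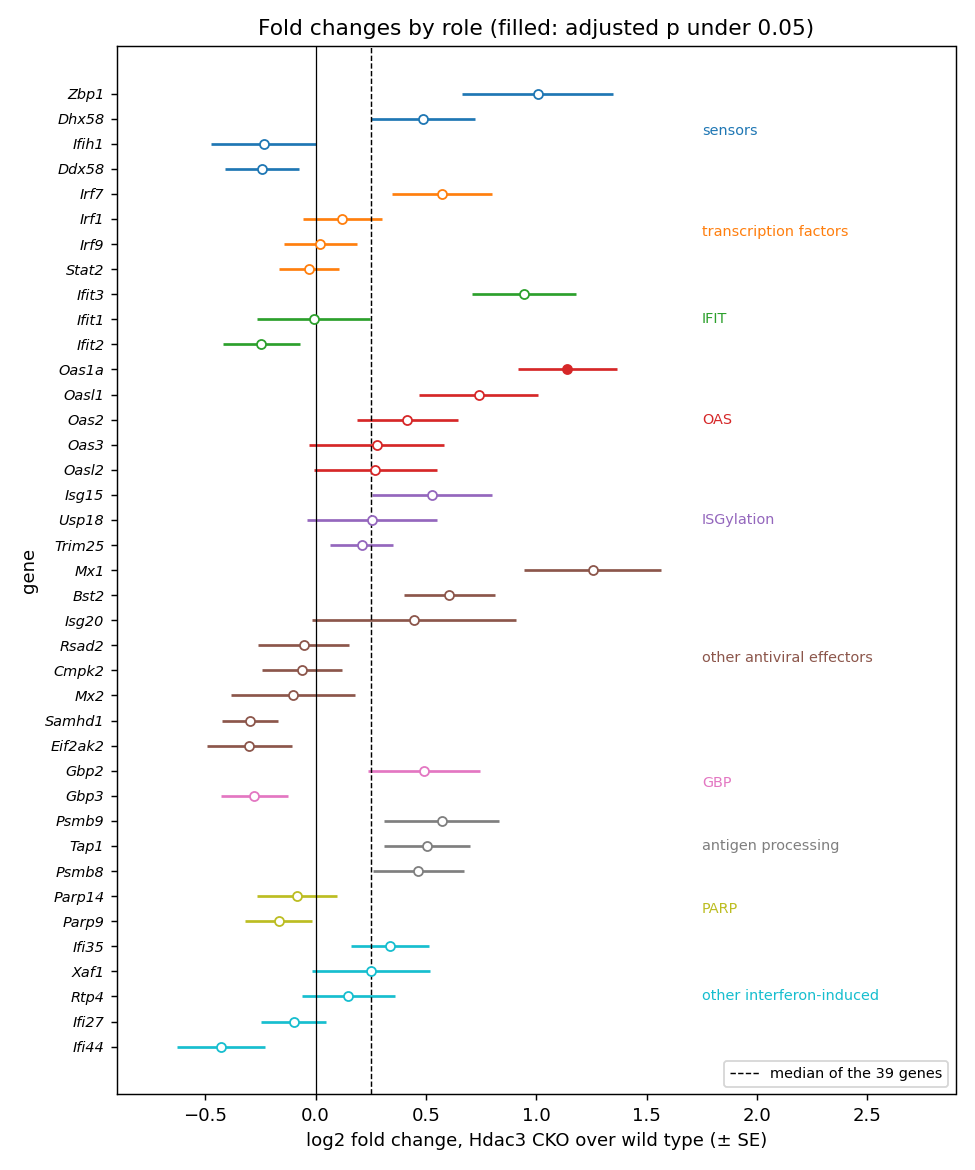
Log2 fold change (Hdac3 CKO over wild type, horizontal axis) of each of the 39 members with its standard error as a bar, grouped by role, with the median of 0.25 as a dashed line. Oas1a (1.14, filled) is the one member that passed the test, Mx1 (1.26) lies farthest to the right and Ifi44 (-0.43) farthest to the left.

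Promoters are shown for the members with the smallest p that hold the core of the ISRE, the element bound by the complex described above. Whether interferon signals act through these matches was not tested. The members that hold the core lay on both sides of 0. The core was searched on either strand as GAAA, any 2 bases and GAAA in the 250 bases before the gene's start, in RefSeq sequences on GRCm38, the assembly also called mm10. Capitals mark every match, with overlapping matches joined, and a match on the opposite strand reads TTTC, any 2 bases and TTTC.
Oas1a (chr5:120907526-120907775, minus strand): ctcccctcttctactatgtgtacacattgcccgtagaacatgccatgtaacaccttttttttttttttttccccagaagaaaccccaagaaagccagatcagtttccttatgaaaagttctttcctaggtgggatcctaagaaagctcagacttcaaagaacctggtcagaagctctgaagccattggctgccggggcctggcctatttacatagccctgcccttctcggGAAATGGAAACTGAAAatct
Ifit3 (chr19:34583279-34583528, plus strand): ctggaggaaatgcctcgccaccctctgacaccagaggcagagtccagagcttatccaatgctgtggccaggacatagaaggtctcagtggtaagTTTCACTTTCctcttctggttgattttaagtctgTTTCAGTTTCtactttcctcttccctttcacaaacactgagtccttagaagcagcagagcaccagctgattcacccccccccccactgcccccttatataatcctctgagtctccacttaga
Bst2 (chr8:71537473-71537722, minus strand): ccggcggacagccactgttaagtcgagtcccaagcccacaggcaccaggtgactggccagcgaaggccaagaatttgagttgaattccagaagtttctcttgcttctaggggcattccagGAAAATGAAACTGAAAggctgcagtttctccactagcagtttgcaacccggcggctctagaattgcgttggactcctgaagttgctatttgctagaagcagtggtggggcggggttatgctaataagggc
Isg15 (chr4:156200819-156201068, minus strand): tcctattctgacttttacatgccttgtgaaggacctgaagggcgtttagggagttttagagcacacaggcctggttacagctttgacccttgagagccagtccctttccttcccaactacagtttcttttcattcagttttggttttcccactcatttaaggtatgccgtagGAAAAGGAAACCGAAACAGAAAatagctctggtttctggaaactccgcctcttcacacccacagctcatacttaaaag
Gbp3 (chr3:142559794-142560043, plus strand): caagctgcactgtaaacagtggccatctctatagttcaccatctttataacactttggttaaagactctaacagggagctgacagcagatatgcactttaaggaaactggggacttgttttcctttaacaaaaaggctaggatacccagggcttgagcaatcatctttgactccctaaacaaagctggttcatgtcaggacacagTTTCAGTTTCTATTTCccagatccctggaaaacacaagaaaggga
Oas1a, Ifit3, Bst2 and Isg15 had log2 fold changes above 0, and Gbp3 had one of -0.28. In Isg15 the matches form 1 joined run of 3 cores, in Oas1a, Bst2 and Gbp3 of 2. The match nearest to the start lay 14 bases before it in Oas1a, 66 in Isg15, 39 in Gbp3 and 124 in Bst2.

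Promoter entries were matched for 29 of the 39 members. Of these, 10 (34.5%) held this core in the 250 bases, against 386 of 12409 tested genes with an entry (3.11%). The others with a match were Oas3, Rsad2, Stat2, Ifit1 and Gbp2, whose window overlaps its own gene span in the deposited table and is therefore not shown. The members with a match had a median log2 fold change of 0.38 and the 19 without one a median of 0.21. With the first 50 bases after the start included, 13 members held the core and the order was the opposite, with medians of -0.0087 and 0.26, as Ddx58, Eif2ak2 and Ifih1 joined. The GAS core TTCNNNGAA, another element of interferon-responsive promoters, was found in 8 of the 29 (27.6%), against 7.28% of tested genes. A match in these letters describes the sequence and shows no binding.

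The sensors recognise foreign nucleic acid. Zbp1, which binds Z-form nucleic acid and can start necroptosis, had 2.104, 0.989 and 2.73 CPM in wild type and 4.89, 3.24 and 3.56 CPM in Hdac3 CKO. The groups did not overlap, and its log2 fold change of 1.01 (SE 0.34) did not pass (edgeR adjusted p = 0.213). The RNA sensors lay on both sides of 0. Ddx58 (RIG-I) and Ifih1 (MDA5) had log2 fold changes of -0.24 and -0.23, and Dhx58 (LGP2), which modulates both, had 0.49, none of which passed. Ifih1 ran from 6.69 to 6.75 CPM over the wild type libraries, and the Hdac3 CKO libraries had 3.68, 7.07 and 6.39 CPM, so that only Hdac3 CKO replicate 1 was low. Without that library its log2 fold change was -0.0096.

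Among the transcription factors, Irf7, which amplifies type I interferon production, had 10.7, 8.36 and 13.9 CPM in wild type and 20.5, 12.8 and 15.6 CPM in Hdac3 CKO. The groups overlapped, since Hdac3 CKO replicate 2 was below wild type replicate 3 (log2 fold change 0.57, SE 0.23, edgeR adjusted p = 0.282). Stat2 and Irf9, which belong to the complex that binds the ISRE, had log2 fold changes of -0.03 and 0.02. Irf1, which acts downstream of interferon gamma, had 0.12.

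The antigen processing members lie next to each other on chromosome 17. Tap1, a subunit of the pump that carries peptides to MHC class I molecules, had 12.3, 10.1 and 15.5 CPM in wild type and 21.3, 16.2 and 16.2 CPM in Hdac3 CKO. Its groups did not overlap (log2 fold change 0.50, SE 0.19, edgeR adjusted p = 0.267). Psmb9, a subunit of the immunoproteasome, had 3.63, 1.86 and 2.77 CPM in wild type and 3.90, 3.78 and 4.603 CPM in Hdac3 CKO, again with no overlap (0.57, SE 0.26, adjusted p = 0.340). Its partner Psmb8 had 6.05, 5.25 and 7.61 CPM against 10.5, 8.27 and 7.39 CPM and overlapped (0.47, SE 0.21, adjusted p = 0.328). All 3 therefore lay above 0 and none passed. Tap1 and Psmb9 share exon sequence on opposite strands, and the library kit does not mark strand, so their reads cannot be fully told apart. In all, 15 members overlap an exon of another annotated gene, Irf7, Oasl1 and Psmb8 among them.

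Isg15 is a ubiquitin-like protein that is attached to other proteins, a step that Usp18 reverses. Isg15, with 7.33, 6.26 and 9.97 CPM in wild type and 15.8, 7.78 and 10.3 CPM in Hdac3 CKO, had a log2 fold change of 0.53, but Hdac3 CKO replicate 2 lay inside the wild type range. Without Hdac3 CKO replicate 1, the high library, it was 0.20. Usp18, which also damps the receptor, had 0.26. Trim25, a ligase for Isg15 and an activator of RIG-I, had 53.7, 61.2 and 64.0 CPM in wild type and 79.3, 67.7 and 59.8 CPM in Hdac3 CKO (log2 fold change 0.21, SE 0.14, edgeR adjusted p = 0.511). None of the 3 passed.

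The guanylate-binding proteins, GTPases that attack vacuoles holding pathogens, split: Gbp2 had a log2 fold change of 0.49 and Gbp3 of -0.28. Gbp3 did not overlap, with 9.30 to 10.6 CPM in wild type and 7.82 to 8.46 CPM in Hdac3 CKO. Parp9 and Parp14, which act in ADP-ribosylation and interferon signalling, had -0.17 and -0.09. Ifi44, an interferon-induced protein, had 7.27, 7.39 and 5.47 CPM in wild type and 4.36, 4.91 and 5.70 CPM in Hdac3 CKO, with overlap (log2 fold change -0.43, SE 0.20, edgeR adjusted p = 0.347). Ifi27, the second most abundant member, had 41.3, 39.1 and 44.8 CPM in wild type and 44.9, 32.5 and 39.6 CPM in Hdac3 CKO, so its groups overlapped (-0.10, SE 0.15, adjusted p = 0.780). Ifi35, Xaf1 and Rtp4 had log2 fold changes of 0.34, 0.25 and 0.15. For Xaf1, which promotes apoptosis, wild type replicate 2 alone was low, at 9.71 CPM against 18.4 to 22.6 CPM in the other 5 libraries.

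The members also shared an order among the libraries of a genotype. Hdac3 CKO replicate 1 was the highest of the 6 libraries for 19 members (48.7%), against 30.3% of all tested genes. Within the Hdac3 CKO libraries, replicate 2 was the lowest for 27 members (69.2%), against 32.9% of all tested genes. Within wild type, replicate 3 was the highest for 24 members (61.5%, all genes 33.2%) and replicate 2 the lowest for 21 (53.8%, all genes 34.7%). The median log2 ratio of the members to their wild type mean was 0.39 in Hdac3 CKO replicate 1, 0.23 in replicate 3 and -0.065 in replicate 2. It was 0.12 in wild type replicate 3, so Hdac3 CKO replicate 2 lay inside the wild type range of -0.099 to 0.12. Without Hdac3 CKO replicate 1 the median log2 fold change of the 39 members was 0.064, against -0.011 over all tested genes, and without Hdac3 CKO replicate 2 it was 0.33. No member passed the edgeR test in either case. At an unadjusted p under 0.05 were 5 and 14 members, beside 2777 and 3991 of all genes tested in these fits. In the main fit these were 10 of the 39 members (25.6%) and 3031 of the 20210 tested genes (15%). Without Hdac3 CKO replicate 1 the member count thus went from 10 to 5, and that over all genes from 3031 to 2777. Hdac3 CKO replicate 1 was also the library with the high muscle sum of 39699 CPM, and the part of muscle RNA in the members' values was not tested.

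Members with log2 fold changes above 0 were shorter than those below 0. The 24 members above 0 had a median length of 3146 bases in the deposited table and the 15 below 0 a median of 4397 bases. Of the 24 members shorter than 4000 bases, 18 lay above 0, with a median of 0.46, against 54.4% and 0.038 over all 12722 tested genes that short. Of the 15 longer members, 6 lay above 0, with a median of -0.054, against 42.9% and -0.056 over all 7488 such genes. Spearman's rho between length and log2 fold change was -0.52 over the 39 members and -0.12 over all tested genes, given as a description since genes share the same libraries. The 4000-base boundary was chosen with the values in view. The members highest in Hdac3 CKO replicate 1 had a median length of 3020 bases, and the 6 lowest in it, Eif2ak2, Ifi44, Ifih1, Ifit2, Irf1 and Stat2, a median of 4755 bases. All tested genes went the same way, with medians of 2749 bases for those highest in this library and 3935 bases for those lowest in it. With a length term in the fit, the median over the members was 0.28 (0.021 over all tested genes) and the adjusted p of Oas1a was 0.0393 (edgeR).

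**Figure D3:**
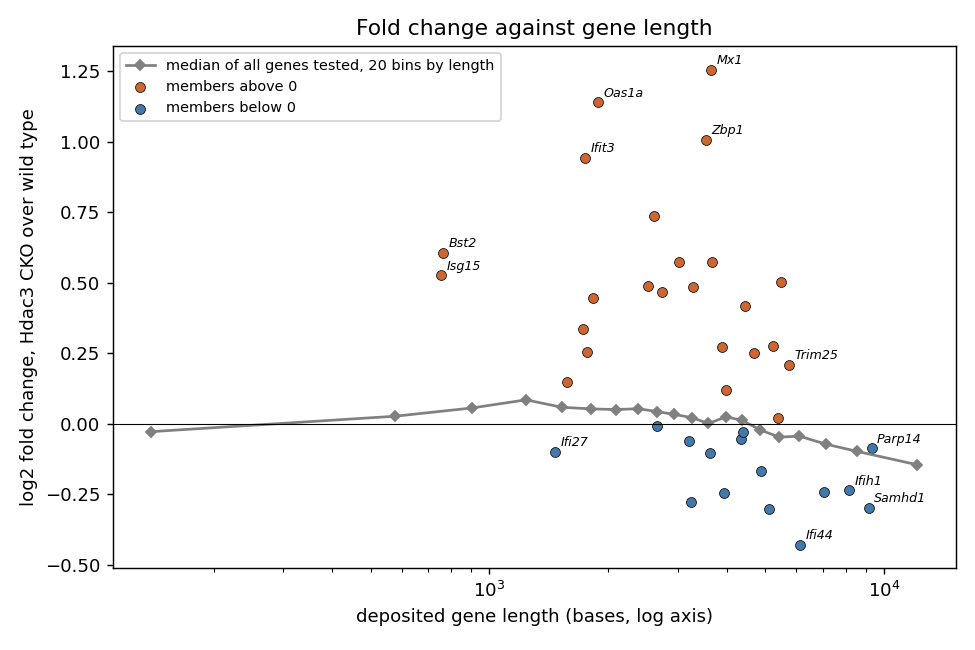
Log2 fold change (Hdac3 CKO over wild type) of the 39 members against deposited gene length in bases (log axis), with the median of all tested genes in 20 bins of about equal gene number as a grey line. The members shorter than 4000 bases lie mostly above 0, by more than the line does, and the longer ones lie around it.

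Upstream of the members, transcripts of the interferons themselves were near absent. None of the 20 listed interferon genes had enough counts to be tested, and the highest count of any of them in any library was 4. Ifnb1, the type I interferon that most cells make first, had 0 counts in all 6 libraries, which allows up to 3 counts in each (counting error only). At this depth no difference in interferon transcripts was detectable.

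The receptors, kinases and Stat proteins held no gene that passed, of 10 tested, with 5 above 0, a median of 0.03 and 1 gene, lower in Hdac3 CKO, at an unadjusted p under 0.05. Ifnlr1, the specific chain of the interferon lambda receptor, had 0.601, 0.543 and 0.915 CPM in wild type and 0.0969, 0.305 and 0.232 CPM in Hdac3 CKO (log2 fold change -1.67, SE 0.46, edgeR adjusted p = 0.133). Its groups did not overlap, but the lowest library rests on 4 counts. Il10rb, its partner chain, had a log2 fold change of 0.30 (adjusted p = 0.359).

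Of 15 genes of nucleic acid sensing none passed in edgeR, 10 lay above 0 and the median was 0.23, with 5 higher and 1 lower at an unadjusted p under 0.05. Unc93b1, which carries nucleic acid-sensing Toll-like receptors to the endosome, had a log2 fold change of 0.51 (SE 0.14, edgeR adjusted p = 0.123), and Ikbke, a kinase that activates Irf3 and Irf7, had -0.60 (SE 0.18, adjusted p = 0.163). Of 13 genes that restrain sensing and interferon signalling none passed in edgeR and 8 lay above 0, with a median of 0.087 and 2 higher at an unadjusted p under 0.05. Ptpn6 (Shp1), a phosphatase abundant in blood cells, had a log2 fold change of 0.74 (SE 0.17, adjusted p = 0.0796), and Socs1, which blocks Jak kinases, had 0.64 (SE 0.24, adjusted p = 0.255). DESeq2 called Unc93b1 (adjusted p = 0.0354) and Ptpn6 (0.00466).

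Of 56 other interferon-induced genes listed, 53 were found in the count table and 48 could be tested. Among the 48, 1 rose and none fell, 34 lay above 0 and the median was 0.13. At an unadjusted p under 0.05, 9 were higher and 3 lower. The gene that rose was Cxcl10, a chemokine that draws T cells, with 0.958, 0.834 and 0.793 CPM in wild type and 2.81, 1.93 and 2.81 CPM in Hdac3 CKO (log2 fold change 1.54, SE 0.27, edgeR adjusted p = 0.0296). Leaving out 1 library gave an adjusted p between 0.0348 and 0.119, with the call kept only without Hdac3 CKO replicate 2. It was also lost with library totals (0.0526), with the Y-linked covariate (0.0620) and without the cartilage-rich pair (0.262). Of 12 genes of MHC class I and antigen presentation none passed in edgeR, 10 lay above 0 and the median was 0.18, with 2 higher at an unadjusted p under 0.05. H2-K1 had 30.1, 26.3 and 38.3 CPM in wild type and 57.1, 54.1 and 48.8 CPM in Hdac3 CKO (0.76, SE 0.16, adjusted p = 0.0574), and H2-D1 had a log2 fold change of 0.61 (SE 0.15, adjusted p = 0.0985). Both are class I heavy chains and belong to a family of near-identical genes, so their counts are uncertain. H2-K1 passed with no filter on low counts (adjusted p = 0.0416), with a length term (0.0416) and under DESeq2 (0.00202), which also called H2-D1 (0.0156). Of 4 other interferon regulatory factors none passed, and Irf4 and Irf8 had log2 fold changes of -0.39 and 0.17.

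Blood cell markers differed between the genotypes beside these genes, and in bulk RNA fewer cells of a type and less RNA per cell cannot be told apart. Of 9 macrophage markers 5 rose (C1qa, C1qb, C1qc, Emr1 and Csf1r), and the summed level was 307 to 319 CPM in wild type and 528 to 593 CPM in Hdac3 CKO. Csf1r did not pass with any 1 library left out (edgeR adjusted p 0.0506 to 0.181), and Emr1 passed only without Hdac3 CKO replicate 1 (0.0467, otherwise up to 0.107). C1qa, C1qb and C1qc were lost without wild type replicate 2 (0.0512 to 0.0634), C1qa and C1qb also without wild type replicate 1, and all 5 without the cartilage-rich pair. Of 8 neutrophil markers 5 fell, with summed levels of 88.8 to 271 CPM in wild type and 18.2 to 28.1 CPM in Hdac3 CKO. Of 8 B lymphoid markers 1 fell (8.20 to 22.5 against 3.45 to 4.43 CPM), and of 7 erythroid markers 2 fell (218 to 370 against 132 to 169 CPM). Of 5 tested markers of plasmacytoid dendritic cells, strong producers of type I interferon, none passed and 2 lay above 0, with a median of -0.16 and 1 higher and 1 lower at an unadjusted p under 0.05. Their summed level, with the untested Klk1, was 134.6 to 215 CPM in Hdac3 CKO and lower in every wild type library, down to 97.8 CPM, most of it from Cox6a2, which is also a muscle gene. Spib and Cox6a2 did not overlap, with log2 fold changes of -2.13 and 0.59 (edgeR adjusted p = 0.105 and 0.191). Siglech, a defining marker, was at 0.142 to 0.737 CPM. Several members are strongly expressed in blood cells, and the part of these cell types in the values of Oas1a and the other members was not tested. Within the Hdac3 CKO libraries, replicates 1, 2 and 3 had macrophage sums of 593, 573 and 528 CPM, beside member medians of 0.39, -0.065 and 0.23. In that order, endothelial marker sums were 616, 486 and 502 CPM (wild type 418 to 528 CPM). Osteoclast sums were 1674, 1809 and 1348 CPM (wild type 830 to 1459 CPM). Osteoblast and bone matrix sums were 58053, 46171 and 38724 CPM (wild type 24587 to 32987 CPM). T and NK sums were 4.79, 4.11 and 5.63 CPM (wild type 3.14 to 3.99 CPM). The part of these cells in the members' values was not tested either.

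**Figure D4:**
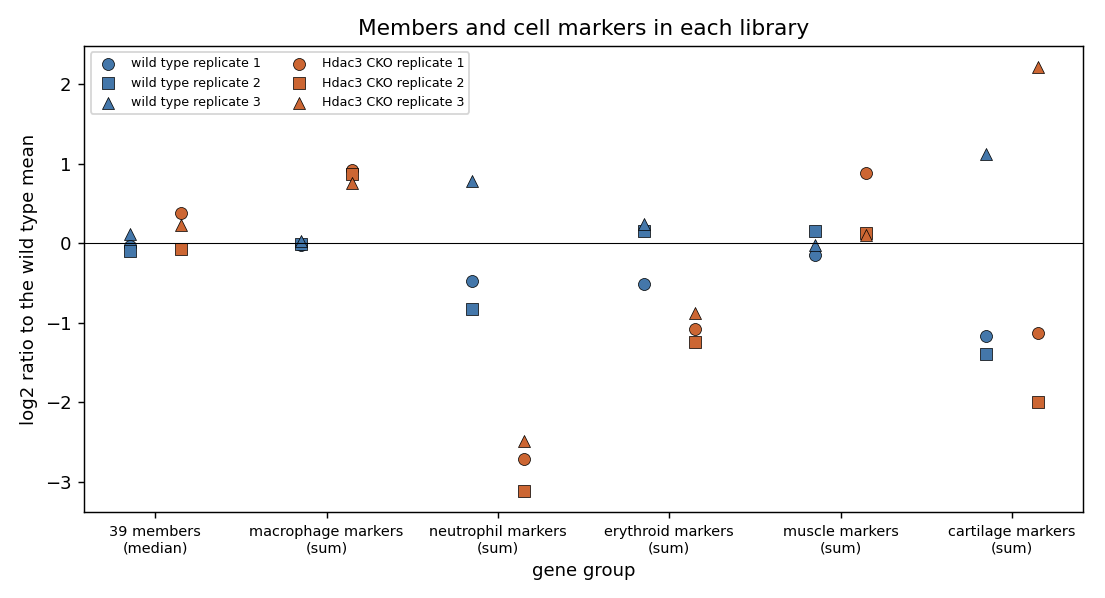
Log2 ratio to the wild type mean (vertical axis) of the 39 members, as their median, and of the summed CPM of 5 marker lists, with 1 point for each of the 6 libraries. The macrophage sums separate the genotypes (307 to 319 against 528 to 593 CPM), while the member median of Hdac3 CKO replicate 2 (-0.065) lies among the wild type values.

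Without the cartilage-rich pair of libraries no gene of all those tested passed the edgeR test, with 2309 at an unadjusted p under 0.05, and the median over the members was 0.23 with 25 above 0. With the Y-linked level as a covariate the median was 0.26, Oas1a had an edgeR adjusted p of 0.0693 and no member passed. The Y-linked level was high in Hdac3 CKO replicate 3 alone, so this covariate largely marks that library. Oas1a had a log2 fold change of 1.17 with the covariate and 1.18 without that library, where the member median was 0.18. Without TMM scaling the median over all tested genes was -0.18 and that over the members 0.054, so the gap between them remained 0.24, against 0.25 with scaling. The direction of Oas1a, Mx1, Ifit3, Bst2, Zbp1, Oasl1, Tap1 and Psmb9 was the same under each of these settings.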

How the data were processed

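Limb bone RNA-seq libraries were grouped by the genotype in the labels, 3 wild type and 3 Hdac3 CKO, with replicates numbered within each genotype. The deposited files hold whole-number counts of reads for each gene, made by the authors with bcl2fastq 1.8.4, TopHat2 2.1.0, Subread and featureCounts on mm10, per the submitters' processing notes. Whether strand was used, how multiply matching reads were counted and which annotation was used is not given in the sources used here. The authors also deposited RPKM values, reads per gene length and library total, which were used to compare levels between genes and as an alternative.

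Counts were filtered by expression, which left 20210 genes with 99.9% of all counts, scaled by TMM and tested with edgeR's quasi-likelihood test in edgeR 4.0.16 (R 4.3.3). The fit had robust moderation, no covariate and 4 residual degrees of freedom, with Benjamini-Hochberg adjustment over all tested genes. The form of the test without the legacy setting was chosen after both forms had been seen. Standard errors are the log2 fold change divided by the root of the F statistic. Alternatives used DESeq2 1.42.0, limma 3.58.1 (voom, and log2 of RPKM plus 1 or 0.1), other scalings and filters, a length term, a Y-linked covariate and fits without libraries. The members and gene lists were chosen with earlier results of these data known, so counts over them are descriptions. The text gives all 39 members, with values in every library for those that passed, the 12 with the smallest p and the 3 with the highest RPKM, and of each other list the genes that passed or else the 2 with the smallest p. Oas1g, Isg15 and Ifih1 were given by library after their values were seen. Sequences are from RefSeq (GRCm38), and exon overlaps from GENCODE M21.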

Additional observations from a re-analysis of the deposited data

How the results depend on the processing

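Counts of genes called over all tested genes, 238 with edgeR, were 868 with DESeq2, 131 with limma on log2(RPKM + 1), 131 with the Y-linked covariate and 0 without the cartilage-rich pair (2309 at an unadjusted p under 0.05), and 23 to 175 when 1 library was left out. The number of members that rose was 3 with DESeq2 (Oas1a, Mx1 and Ifit3), beside 481 of all tested genes. In the main fit 1 member and 142 of all tested genes rose. The number of members that rose was 0 with library totals in place of TMM, the stricter filter (CPM of 1), no robust moderation, limma-voom and both RPKM scales. It was also 0 with the legacy edgeR test, the Y-linked covariate, without the cartilage-rich pair, and 0 to 0 when 1 library was left out. With library totals 32.6% of the called genes were higher, against 59.7% with TMM. The median over the members was 0.054 with library totals, 0.055 with log2(RPKM + 1), 0.069 with log2(RPKM + 0.1) and 0.064 to 0.33 when 1 library was left out. Over all tested genes it was -0.18 with library totals, -0.062 with log2(RPKM + 1) and -0.12 with log2(RPKM + 0.1). The gap between members and all tested genes was thus 0.24, 0.12 and 0.19, against 0.25 in the main fit.

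Directions turned in 14 members and in Irf8, none of which passed. Hdac3, at an adjusted p of 0.0605 with the Y-linked covariate and 0.285 without the cartilage-rich pair, did not pass there, and Emr1 and Csf1r did not with library totals (0.0689 and 0.0878) or on either RPKM scale. With library totals the log2 fold changes were -0.050 for Rtp4, -0.055 for Irf1, -0.17 for Irf9 and -0.023 for Irf8. With log2(RPKM + 1) they were -0.0023 for Rtp4, -0.016 for Irf1 and -0.091 for Irf9, and with log2(RPKM + 0.1) -0.0057, -0.024 and -0.12. The length term gave 0.037 for Parp14. The Y-linked covariate gave -0.077 for Isg20 and 0.052 for Mx2, and without the cartilage-rich pair these were -0.051 and 0.27, and Rsad2 was 0.045. With 1 library left out the ranges were -0.099 to 0.033 for Stat2, -0.26 to 0.17 for Ifit1, -0.036 to 0.45 for Xaf1, -0.28 to 0.020 for Parp14, -0.14 to 0.16 for Irf9, -0.29 to 0.12 for Mx2 and -0.17 to 0.15 for Rsad2. They were -0.12 to 0.55 for Oasl2, -0.020 to 0.52 for Usp18, -0.061 to 0.33 for Rtp4, -0.015 to 0.32 for Irf8, -0.22 to 0.019 for Ifi27, -0.012 to 0.26 for Irf1, -0.17 to 0.088 for Cmpk2 and -0.24 to 0.80 for Isg20. Fewer samples enter the fits that leave libraries out; for the other changes the cause was not tested.

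No paired analysis was possible because the labels give the genotypes no shared replicate numbers. Depth limits the scarcest members, Mx1 with as few as 48 counts in a library, and the interferon genes, which could not be tested.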
